A study of Mus musculus with 9 samples.

Results

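The genes of de novo fatty acid synthesis were followed in mouse liver as a set of 10: Srebf1, Mlxipl, Thrsp, Pklr, Acly, Me1, Acaca, Acacb, Fasn and Elovl6. They were chosen by symbol from the array's annotation table, among 22180 genes with a probe set of a single symbol. Each of the 10 had 1 such probe set, so no choice between probe sets was needed. The livers came from C57BL/6 mice (the strain entry reads C56BL/6J) that were 5 weeks old when housed, and the tissue was taken after an overnight fast. There were 9 arrays, 3 each from mice on a regular diet (RD), a high-fat diet (HFD) and a high-fat diet with an extract of ginseng flower buds (GFB). Mice of the last group took 500 mg/kg of extract orally each day for 12 weeks, and those of the other groups took vehicle. Every group was fasted, so no fed liver was measured, and the sex of the mice and the make-up of the diets are not given in the sources used here.

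De novo fatty acid synthesis turns sugar carbon into fat. Citrate leaves the mitochondria and is split by the product of Acly into acetyl-CoA. The acetyl-CoA carboxylases made from Acaca and Acacb turn this into malonyl-CoA, and fatty acid synthase, the product of Fasn, builds palmitate from it with NADPH that malic enzyme (Me1) helps to supply. Elovl6 encodes the enzyme that lengthens palmitate to stearate. In liver the programme is driven by insulin through SREBP-1c, a product of Srebf1, and by sugar through ChREBP, the product of Mlxipl. It is known to be low in fasting and to rise on refeeding.

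The values are log2 intensities made by robust multi-array average (RMA), and all 10 genes lay above the median gene mean of 4.74. Differences are log2 differences ± standard error from limma with 3 arrays per group, and a gene was called changed at an adjusted p under 0.05 over all 22180 genes. Whether the 9 arrays stand for 9 mice is not stated, so each p-value measures the spread among these samples, which may be technical. Array medians ran from 4.34 to 4.38, and pairs of arrays correlated across genes at 0.987 to 0.994. On the defining hepatocyte markers the tissue label was met, with the albumin gene Alb between 13.48 and 13.57 in all arrays. RNA of a whole liver piece was measured, so fewer cells of a type and less RNA per cell cannot be told apart.

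On the high-fat diet the 10 genes split. The regulators Srebf1, Mlxipl and Thrsp, the glycolytic gene Pklr and Fasn had higher means. The means of Acly, Me1 and Acaca were close to those on the regular diet, and Acacb and Elovl6 had lower means. Thrsp was the only one of the 10 that was called in HFD against RD, where 1.34% of all genes were called, 0.821% higher and 0.518% lower. For 6 of the 10 the HFD arrays did not overlap the RD arrays, 5 above and 1 below, while 15.8% of all genes did not overlap, 7.93% above and 7.86% below. The median difference over the 10 was 0.35, beside 0.0001 over all genes tested.

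**Figure D1:**
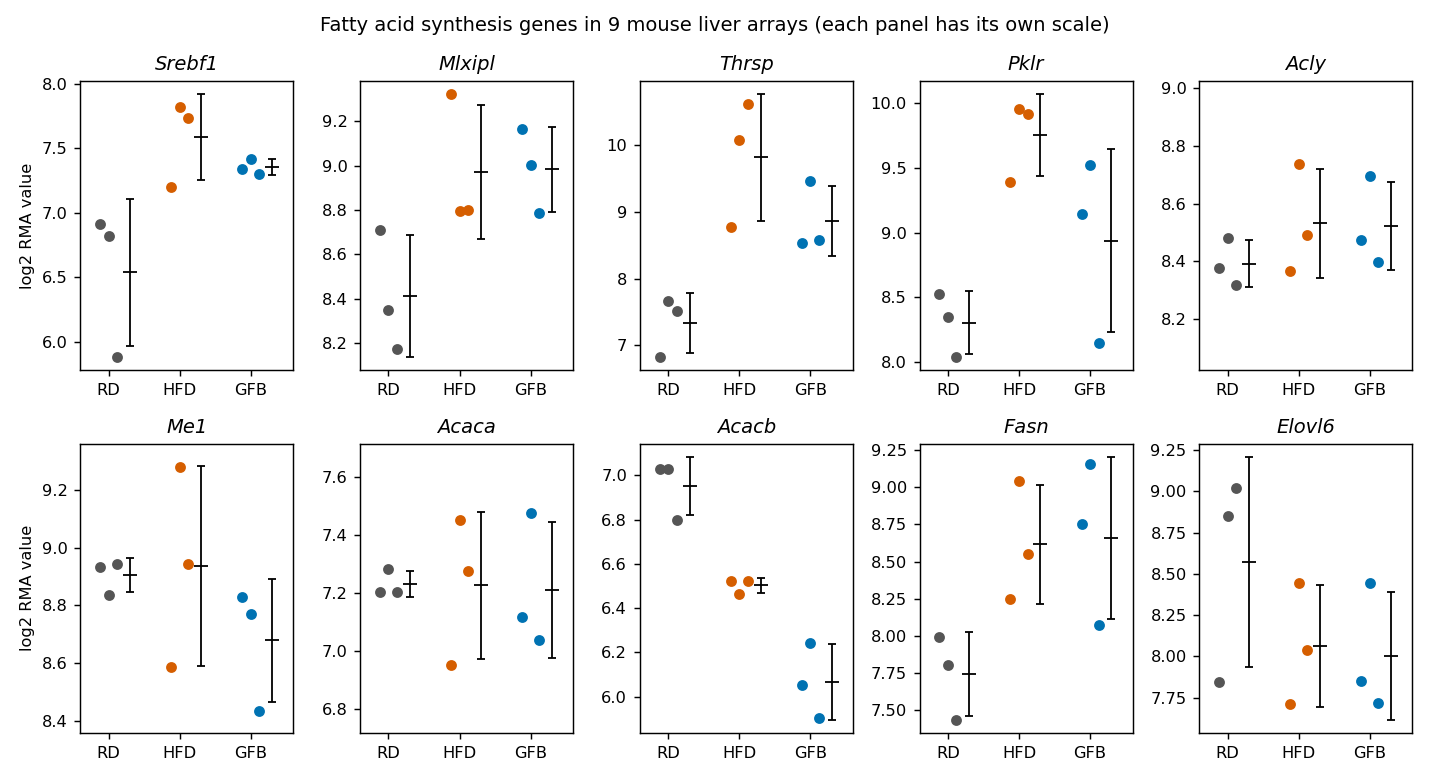
Log2 RMA values of the 10 genes in each of the 9 arrays, by group (RD regular diet, HFD high-fat diet, GFB high-fat diet with extract), with 1 point per array and the mean ± SD of the 3 arrays beside them; panels have different scales that do not start at 0. Srebf1, Mlxipl, Thrsp and Fasn lie above the RD arrays in all 6 high-fat-fed arrays, and Acacb lies below them in all 6.

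Promoters of Thrsp, Fasn and Acacb are printed for the gene with the largest rise, the gene of the central synthetic step and the gene with lower values in all 6 high-fat-fed arrays. They run from 250 bases before to 50 after the RefSeq start in the assembly GRCm38.p6, 5′ to 3′ along the gene. Thrsp lies at chr7:97417501-97417800 on the minus strand, Fasn at chr11:120824498-120824797 on the minus strand and Acacb at chr5:114165268-114165567 on the plus strand. Capitals mark the inverted CCAAT box, searched as ATTGG on both strands, the site of the factor NF-Y that often works beside SREBP.
Thrsp: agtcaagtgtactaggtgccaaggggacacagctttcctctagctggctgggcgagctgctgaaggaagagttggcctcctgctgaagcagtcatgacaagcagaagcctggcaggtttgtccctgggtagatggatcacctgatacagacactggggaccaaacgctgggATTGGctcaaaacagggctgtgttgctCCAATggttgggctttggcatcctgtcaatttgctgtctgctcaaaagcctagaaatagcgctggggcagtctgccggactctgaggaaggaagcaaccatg
Fasn: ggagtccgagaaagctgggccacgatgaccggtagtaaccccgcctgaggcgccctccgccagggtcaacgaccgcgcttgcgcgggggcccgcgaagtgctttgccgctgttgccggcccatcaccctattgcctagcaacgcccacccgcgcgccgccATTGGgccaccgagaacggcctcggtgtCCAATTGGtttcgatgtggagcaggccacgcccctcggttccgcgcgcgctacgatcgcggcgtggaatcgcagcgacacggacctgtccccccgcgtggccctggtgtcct
Acacb: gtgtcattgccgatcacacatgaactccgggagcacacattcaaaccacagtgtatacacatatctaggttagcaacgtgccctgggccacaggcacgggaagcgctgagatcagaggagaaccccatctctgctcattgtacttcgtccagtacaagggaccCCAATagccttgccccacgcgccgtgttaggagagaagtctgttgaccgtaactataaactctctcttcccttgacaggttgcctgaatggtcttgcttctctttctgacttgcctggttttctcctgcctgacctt
In Thrsp the matches begin at -79 and -52 from the start, in Acacb at -87, and in Fasn at -90, -62 and -59, the last 2 overlapping. Over the 15 promoters that the table lists for the 10 genes, 9 held ATTGG on either strand, and 8 of the 10 genes had at least 1 such promoter. Of all 32851 promoters of the same length, 37.4% held it, a share that belongs beside the 9 of 15. A share per gene was not computed, and some of the 10 genes have several promoters. The E-box CACGTG, a core of ChREBP and SREBP binding, was in 1 of the 15, a promoter of Mlxipl, and in 7.15% of all. The sterol response element, the classic SREBP site, searched in its consensus form on both strands with 1 base left open, was in 0 of the 15 and in 0.234% of all. A gene that rose and the gene that fell both hold the CCAAT letters, and a match of letters is not a measured site.

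Among the regulators, Srebf1 encodes SREBP-1c together with SREBP-1a, transcription factors that switch on the lipogenic enzymes. Srebf1 read 6.91, 6.82 and 5.88 on the regular diet, 7.20, 7.82 and 7.73 on the high-fat diet, and 7.34, 7.42 and 7.30 with extract. Every high-fat-fed array was above every RD array, and regular-diet replicate 3 was far below the other 2 of its group. The difference of HFD from RD was 1.05 ± 0.26 and was not called (adjusted p = 0.098). It was called among the brighter genes (adjusted p = 0.0493), and without regular-diet replicate 3 it was 0.72 (adjusted p = 0.128). With extract Srebf1 stood 0.82 ± 0.26 above RD (adjusted p = 0.25, and 0.49 without that array) and -0.23 ± 0.26 from HFD (adjusted p = 0.923).

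Mlxipl encodes ChREBP, the sugar-sensing factor. It read 8.71, 8.35 and 8.17 on the regular diet, 9.32, 8.79 and 8.80 on the high-fat diet and 9.17, 9.004 and 8.78 with extract. The 6 high-fat-fed arrays again lay above the 3 RD arrays, with high-fat diet replicate 1 the highest. The difference was 0.56 ± 0.18 in HFD against RD (adjusted p = 0.202) and 0.57 ± 0.18 in GFB against RD (adjusted p = 0.248), and neither was called. Between GFB and HFD it was 0.01 ± 0.18, with a 95% interval from -0.39 to 0.42.

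Thrsp encodes Spot 14, a small protein of lipogenic tissues that is linked to the control of fatty acid synthesis. Its values were 6.83, 7.67 and 7.52 on the regular diet, 8.76, 10.06 and 10.60 on the high-fat diet and 8.53, 9.46 and 8.58 with extract. All 6 high-fat-fed arrays were above the RD arrays, and the HFD and GFB arrays overlapped. Thrsp rose 5.55-fold in HFD against RD (2.47 ± 0.45, adjusted p = 0.0351), the largest difference among the 10. Dropping high-fat replicate 1 kept the call (2.99, adjusted p = 0.017), and dropping any 1 of the other 8 arrays ended it, with differences from 2.08 to 2.64 and adjusted p from 0.0527 to 0.125. It was also lost when only the 6 arrays of these groups were fitted (adjusted p = 0.119). With extract the difference from RD was 1.52 ± 0.45 (adjusted p = 0.216), and from HFD it was -0.95 ± 0.45 (adjusted p = 0.845). The last value ranged from -0.56 without high-fat diet replicate 3 to -1.47 without high-fat diet replicate 1.

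Pklr encodes the liver pyruvate kinase, which closes glycolysis and is a classic ChREBP target. It read 8.52, 8.35 and 8.04 on the regular diet, 9.39, 9.96 and 9.92 on the high-fat diet, and 9.14, 9.53 and 8.15 with extract. The HFD arrays were all above the RD arrays, while extract replicate 3 lay within the RD range. HFD against RD gave 1.45 ± 0.31, a 2.73-fold difference that was not called (adjusted p = 0.0643). It was called without extract replicate 3, which entered only through the shared estimate of the spread (adjusted p = 0.0255), with a variance trend and robust fitting (adjusted p = 0.0466) and among the brighter genes (adjusted p = 0.032). GFB stood at -0.82 ± 0.31 from HFD (adjusted p = 0.802), with a range from -0.42 without extract replicate 3 to -1.11 without extract replicate 2. Against RD it was 0.64 ± 0.31 (adjusted p = 0.475), and it ran from 0.34 without extract replicate 2 (adjusted p = 0.731) to 1.03 without extract replicate 3 (adjusted p = 0.123).

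Of the enzymes that supply acetyl-CoA and NADPH, Acly read 8.38, 8.48 and 8.32 on the regular diet, 8.37, 8.74 and 8.49 on the high-fat diet and 8.47, 8.69 and 8.40 with extract. The 3 groups overlapped. The difference of HFD from RD was 0.14 ± 0.11 (adjusted p = 0.661), with a 95% interval from -0.12 to 0.39. GFB differed from HFD by -0.01 ± 0.11 (adjusted p = 0.994), with an interval from -0.26 to 0.25.

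Me1 read 8.93, 8.84 and 8.94 on the regular diet, 8.59, 9.28 and 8.94 on the high-fat diet and 8.83, 8.77 and 8.44 with extract. Its HFD arrays spread on both sides of the RD arrays, and its GFB arrays lay just below them, with extract replicate 1 at 8.83 beside regular-diet replicate 2 at 8.84. The difference was 0.03 ± 0.17 in HFD against RD (adjusted p = 0.96), -0.26 ± 0.17 in GFB against HFD (adjusted p = 0.866) and -0.23 ± 0.17 in GFB against RD (adjusted p = 0.646).

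The 2 acetyl-CoA carboxylase genes parted. Acaca encodes the cytosolic form that feeds fatty acid synthase. It read 7.20, 7.28 and 7.20 on the regular diet, 6.95, 7.45 and 7.28 on the high-fat diet, and 7.12, 7.48 and 7.04 with extract, so the groups overlapped throughout. HFD differed from RD by -0.0035 ± 0.14 (adjusted p = 0.997), with a 95% interval from -0.33 to 0.32. GFB differed from HFD by -0.02 ± 0.14 (adjusted p = 0.992) and from RD by -0.02 ± 0.14 (adjusted p = 0.975).

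Acacb encodes the form that sits at the mitochondrial outer membrane, where its malonyl-CoA holds back fatty acid entry through carnitine palmitoyltransferase 1. Its values were 7.03, 7.03 and 6.80 on the regular diet, 6.52, 6.46 and 6.52 on the high-fat diet, and 6.05, 6.24 and 5.90 with extract. The groups formed 3 separate bands, RD highest and GFB lowest, with no array of one inside another. Acacb fell 1.85-fold in GFB against RD (-0.88 ± 0.10, adjusted p = 0.014), the only one of the 10 called there, where 0.442% of all genes were called, 0.261% higher and 0.18% lower. The call did not hold when regular-diet replicate 2 (-0.85, adjusted p = 0.0826), extract replicate 1 (-0.88, adjusted p = 0.0779) or extract replicate 2 (-0.97, adjusted p = 0.0599) was dropped, or with only the 6 arrays of these groups (adjusted p = 0.0728). The 2 steps that make up this difference were -0.45 ± 0.10 in HFD against RD (adjusted p = 0.0744) and -0.44 ± 0.10 in GFB against HFD (adjusted p = 0.537), and neither was called. The first of them was called among the brighter genes (adjusted p = 0.0337).

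Within each array, Acacb minus Acaca was -0.18, -0.26 and -0.41 on the regular diet, -0.43, -0.99 and -0.75 on the high-fat diet and -1.06, -1.23 and -1.13 with extract. The level of each such value depends on the probes, and probe sets can also differ in how fully they register a change. The 3 groups again lay apart from each other, high-fat diet replicate 1 next to regular-diet replicate 3. This contrast of the 2 genes was formed after their values were seen and was not tested. High-fat diet replicates 1 and 3 held the same Acacb value to the last digit, as did regular-diet replicates 1 and 3 for Acaca. Such ties occurred in 56.9% of genes, at the median of the 9 arrays in 93.7% of those, and they narrow the spread of Acacb on the high-fat diet (SD 0.03).

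Fasn, which encodes fatty acid synthase itself, read 7.99, 7.80 and 7.44 on the regular diet, 8.25, 9.04 and 8.55 on the high-fat diet, and 8.75, 9.15 and 8.08 with extract. All 6 high-fat-fed arrays lay above the RD arrays, and HFD and GFB overlapped fully. The difference was 0.87 ± 0.28 in HFD against RD (adjusted p = 0.207) and 0.92 ± 0.28 in GFB against RD (adjusted p = 0.238), neither called. Between GFB and HFD it was 0.04 ± 0.28, with a 95% interval from -0.59 to 0.68.

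Elovl6 had the widest spread of the 10 on the regular diet (SD 0.63). It read 7.85, 8.85 and 9.02 there, 7.71, 8.45 and 8.04 on the high-fat diet and 7.85, 8.44 and 7.72 with extract. Regular-diet replicate 1 lay among the high-fat-fed arrays, and the other 2 RD arrays lay above all 6. HFD against RD was -0.51 ± 0.32 (adjusted p = 0.558), and it ran from -0.28 without regular-diet replicate 3 (adjusted p = 0.806) to -0.87 without regular-diet replicate 1 (adjusted p = 0.15). GFB against RD was -0.57 ± 0.32 (adjusted p = 0.531), from -0.35 to -0.93 on dropping the same arrays.

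**Figure D2:**
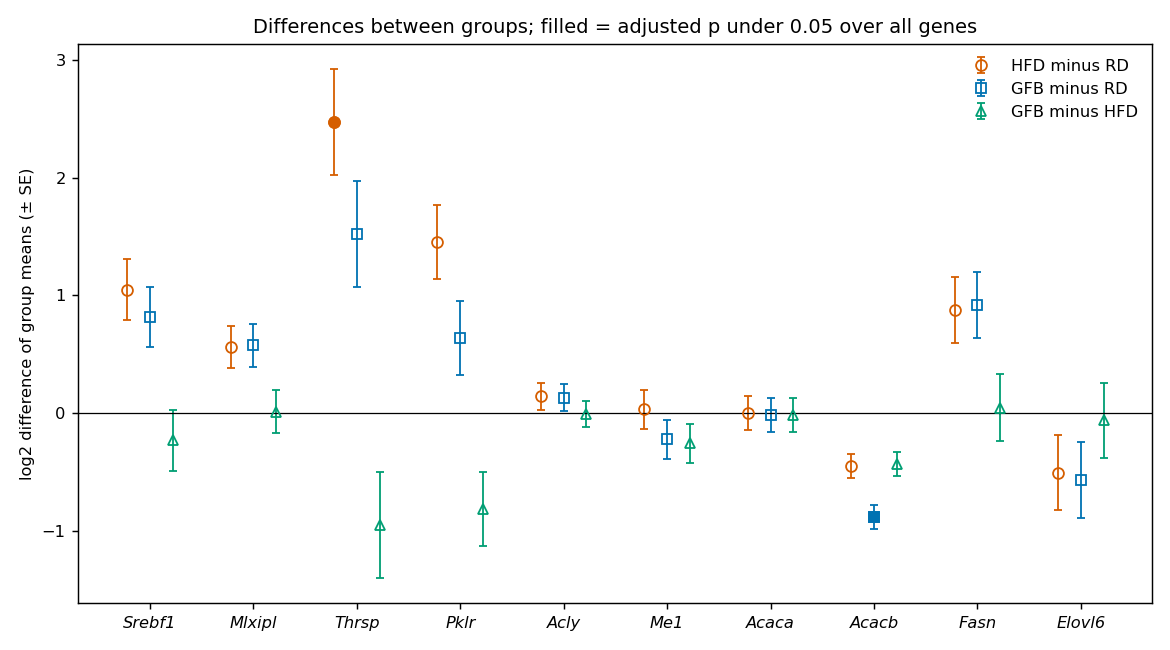
Log2 differences of group means ± standard error (vertical axis) for each of the 10 genes in HFD against RD, GFB against RD and GFB against HFD, from limma over 9 arrays; filled symbols mark an adjusted p under 0.05 over all genes tested. Thrsp in HFD against RD (2.47) and Acacb in GFB against RD (-0.88) are the filled symbols, and Acaca lies at the zero line in all 3 comparisons.

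The comparisons share arrays: HFD against RD and GFB against RD have the RD arrays in common, and GFB against HFD shares the HFD arrays with the first. All 6 high-fat-fed arrays were also set against RD, as the average of the HFD and GFB means in the same fit. The standard errors there leave out the spread between HFD and GFB. In this contrast Thrsp rose (2.00 ± 0.39, adjusted p = 0.0403) and Acacb fell (-0.67 ± 0.09, adjusted p = 0.0113). These were 2 of 10 genes, where 1.68% of all genes were called, 0.933% higher and 0.744% lower. Fasn (0.90 ± 0.25, adjusted p = 0.124), Srebf1 (0.93 ± 0.22, adjusted p = 0.0809), Mlxipl (0.57 ± 0.16, adjusted p = 0.126) and Pklr (1.04 ± 0.27, adjusted p = 0.105) were not called. Pklr was called without extract replicate 3 (1.24, adjusted p = 0.0249), and Srebf1 among the brighter genes (adjusted p = 0.0396). No overlap between the 6 and the 3 arrays was seen for 5 of the 10, 4 above and 1 below, beside 7.9% of all genes, 3.8% above and 4.11% below. The Acacb call was lost without regular-diet replicate 2 (-0.63, adjusted p = 0.0615). The Thrsp call was kept on dropping high-fat replicate 1 (adjusted p = 0.0172) and ended on dropping any 1 of the other 8 arrays, with adjusted p from 0.0683 to 0.116.

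For the extract on the high-fat diet, limma called 0 of the 10 genes in GFB against HFD, where it called 0.00451% of all genes (1 gene, higher; 0% lower). At an unadjusted p under 0.05 there were 2, Acacb and Pklr, both lower, beside 5.98% of all genes. Of the 10, 8 had a lower mean with extract, beside 11203 of 22180 genes, with a median of -0.15 beside -0.0015 over all genes. Among those 8, the differences of Acly (-0.01), Acaca (-0.02) and Elovl6 (-0.06) were small. They changed sign in 4, 5 and 3 of 17 alternatives. Acacb was the only one of the 10 without overlap, beside 9.69% of all genes, 4.42% above and 5.27% below. In GFB against RD, 6 of the 10 did not overlap, 4 above (Srebf1, Mlxipl, Thrsp and Fasn) and 2 below (Acacb and Me1), beside 14.6% of all genes, 7% above and 7.62% below.

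Within groups the 10 genes were more variable than most. The pooled SD within groups was 0.67 for Thrsp, at the 99.7th percentile of all genes tested. It was 0.48 for Elovl6, 0.47 for Pklr, 0.42 for Fasn, 0.38 for Srebf1 and 0.26 for Mlxipl, all above the 90th percentile, and 0.13 for Acacb, at percentile 46.6. Standard errors of the differences above come from these spreads after limma drew each toward a value shared by all genes. The wide spread of Thrsp thus entered its tests as a smaller one.

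With group means removed, 39 of the 45 pairs of genes correlated above 0 over the 9 arrays, with a median of 0.51, and 4 pairs were above 0.8. Those were Acly with Acaca (0.94), Fasn with Pklr (0.94), Acly with Fasn (0.87) and Acaca with Fasn (0.83). These correlations are over 9 arrays of 3 groups, are given as a description, and share the arrays' normalization. The same was not computed for pairs of other genes. Mlxipl stood apart, with a mean correlation of -0.15 with the other 9 genes, from -0.72 with Thrsp to 0.505 with Acacb. It was also positive with Pklr (0.19), Fasn (0.14) and Srebf1 (0.098), and negative with Acly, Me1, Acaca and Elovl6.

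By array, extract replicate 2 lay above its group mean for 10 of the 10 genes and extract replicate 3 for 0. High-fat diet replicate 2 was above its group mean for 8 and high-fat diet replicate 1 for 2 (Acacb and Mlxipl). Over all genes tested these 4 arrays were above their group means for 50.0%, 48.3%, 50.7% and 48.8%. On the regular diet replicate 2 was above its group mean for 8 and replicate 3 for 3 of the 10 genes, so the array numbered 2 had the highest count in every group. Same-numbered arrays also deviated alike for some genes but not for others. In the arrays numbered 1, Thrsp was at -0.51, -1.04 and -0.33 and Elovl6 at -0.73, -0.36 and -0.15 from the RD, HFD and GFB means. Acly and Acaca were also below each of these means, while Mlxipl was above, at 0.30, 0.35 and 0.18. Sign changed between those arrays for Srebf1 (0.37, -0.38 and -0.01), Pklr (0.22, -0.36 and 0.20), Fasn (0.25, -0.36 and 0.09), Me1 and Acacb. On the regular diet the arrays differed little for Acly, Acaca and Me1 (SD 0.08, 0.04 and 0.06) and more for Elovl6, Srebf1 and Thrsp (SD 0.63, 0.57 and 0.45).

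**Figure D3:**
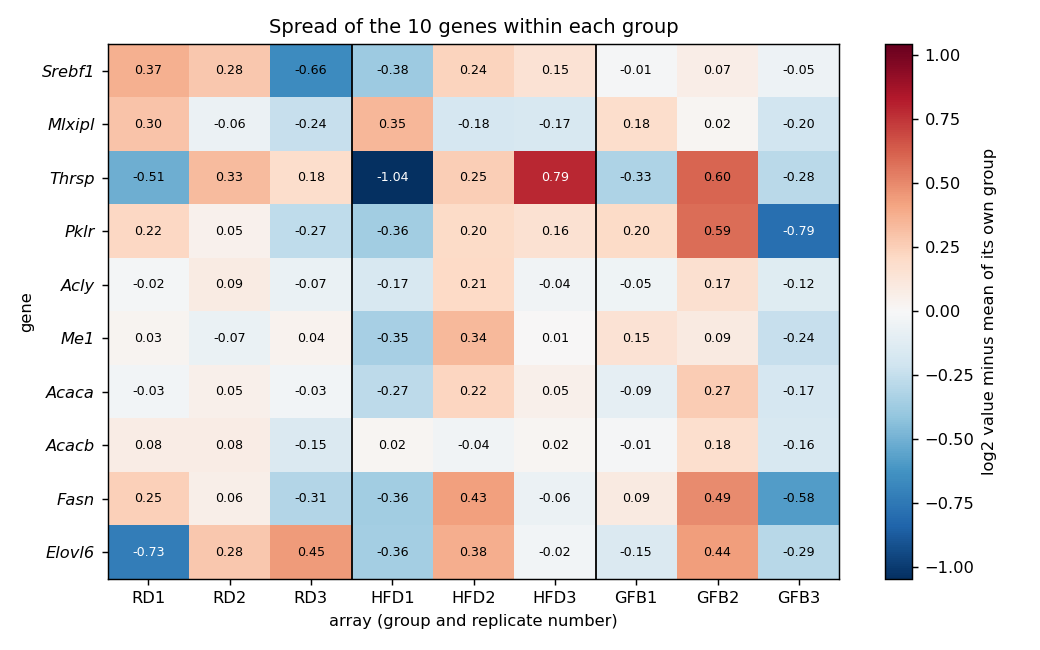
Value of each of the 10 genes (rows) in each of the 9 arrays (columns), as the log2 value minus the mean of its own group, in colour and in figures; black lines separate the groups. Extract replicate 2 (GFB2) is positive in every row and extract replicate 3 (GFB3) negative in every row, and Thrsp in high-fat diet replicate 1 is the lowest at -1.04.

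Livers were fasted, so the values of fasting-induced genes stand beside these results. The 10 measured genes of that list had lower means in HFD than in RD, with a median of -0.54, beside 11063 of 22180 genes with lower means, and limma called 1 of the 10, which fell. That gene was Irs2, an insulin receptor substrate that rises in fasting (-0.95 ± 0.13, adjusted p = 0.0145). Irs2 read 6.81, 7.19 and 6.89 on the regular diet, 5.98, 6.06 and 6.00 on the high-fat diet, and 6.45, 6.83 and 6.90 with extract, where it stood 0.71 ± 0.13 above HFD (adjusted p = 0.325). Its call did not hold when regular-diet replicate 2 (-0.83, adjusted p = 0.0563), high-fat replicate 1 (-0.93, adjusted p = 0.0518) or high-fat replicate 3 (-0.94, adjusted p = 0.0645) was dropped, or with only those 6 arrays (adjusted p = 0.0579). Pck1, which encodes the gluconeogenic carboxykinase, stood at -0.89 ± 0.26 (adjusted p = 0.151) and Ppargc1a, which encodes a fasting coactivator, at -1.04 ± 0.31 (adjusted p = 0.171), neither called. Relative to the RD mean, the list lay at -0.85, -0.52 and -0.79 in the HFD arrays and at -1.06, -0.54 and -0.30 in the GFB arrays. Its part in the differences of the lipogenic genes was not tested.

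The machinery that releases SREBP from the endoplasmic reticulum was examined next, as 16 measured genes of SREBP processing and Srebf1 transcription. In HFD against RD 2 rose and 0 fell, with a median of 0.0076. Insig1, which encodes the anchor that holds SREBP back and is itself an SREBP target, read 8.72, 8.81 and 8.21 on the regular diet, 9.78, 10.60 and 9.95 on the high-fat diet, and 10.56, 10.78 and 10.21 with extract. Insig1 rose by 1.53 ± 0.24 in HFD (adjusted p = 0.0212) and by 1.93 ± 0.24 in GFB (adjusted p = 0.0168) against RD. Srebf2, which encodes the sterol-directed SREBP-2, rose by 0.87 ± 0.13 (adjusted p = 0.0157) and by 0.99 ± 0.13 (adjusted p = 0.0168). Both were called in 16 of 16 alternatives when the average of the HFD and GFB means was set against RD. In HFD against RD alone, Insig1 was called in 12 of 17 and Srebf2 in 13 of 17, with the lowest differences at 1.28 and 0.76. The arrays whose absence ended that call were regular-diet replicates 2 and 3 and high-fat replicates 2 and 3 for Insig1 (adjusted p from 0.0506 to 0.0693). For Srebf2 they were regular-diet replicates 2 and 3 and high-fat replicate 1 (adjusted p from 0.0518 to 0.0686). In GFB against RD they were regular-diet replicates 2 and 3 and extract replicates 1 and 2 for both genes (adjusted p from 0.0604 to 0.113). Nfyb, a subunit of NF-Y, was at -0.21 ± 0.09 (adjusted p = 0.386).

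In HFD against RD the other lists around the pathway held 0 calls by limma, and counts at an unadjusted p under 0.05 are given beside 13.3% of all genes. Of 14 measured genes for desaturation, elongation and the supply of citrate and NADPH, 7 were higher and 2 lower at that level, with a median of 0.15. Cs, the citrate synthase gene, stood at 0.55 ± 0.13 (adjusted p = 0.0782), Pgd, of the NADPH-making pentose phosphate pathway, at 0.48 ± 0.11 (adjusted p = 0.0885) and Idh1, which makes cytosolic NADPH, at 0.30 ± 0.08 (adjusted p = 0.127). Of 11 measured partners and targets of ChREBP, 3 were higher and 1 lower, with a median of 0.16. They included Gckr, the glucokinase regulator (0.57 ± 0.21, adjusted p = 0.268), Khk, the fructokinase gene (0.50 ± 0.20, adjusted p = 0.316) and Fgf21, a hormone gene (-0.57 ± 0.21, adjusted p = 0.277).

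Of 11 other SREBP-1c or LXR targets, 3 were higher and 1 lower at that level, with a median of 0.32. The triglyceride genes Agpat2 (0.59 ± 0.12, adjusted p = 0.0514) and Dgat2 (0.39 ± 0.09, adjusted p = 0.0744) came nearest to the threshold, and Lpin2 was at -0.60 ± 0.23 (adjusted p = 0.305). Of 11 genes of malonyl-CoA removal and AMP-activated kinase, 0 were higher and 3 lower, with a median of -0.13. Those were Mlycd, which encodes malonyl-CoA decarboxylase (-0.28 ± 0.08, adjusted p = 0.137), Stk11, the upstream kinase of AMP-activated kinase (-0.21 ± 0.07, adjusted p = 0.212), and Cpt1a, the gate that malonyl-CoA closes (-0.36 ± 0.13, adjusted p = 0.274). Cpt1a, Fgf21 and G6pc are each on 2 lists.

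In GFB against HFD limma called 0 genes on each of the 6 lists. At an unadjusted p under 0.05 the desaturation and supply list had 0 higher and 2 lower, the ChREBP list 0 and 1, the list of other targets 0 and 2, the SREBP processing list 1 and 0, the malonyl-CoA list 1 and 0, and the fasting list 1 and 0. Over all genes, 5.98% passed at that level, and 11203 of 22180 had lower means with extract. Means were lower for 11 of 14 genes of desaturation and supply (median -0.09) and for 10 of 11 of the ChREBP list (median -0.10). They were lower for 7 of 11 other targets, 6 of 11 of the malonyl-CoA list and 5 of 10 of the fasting list. The SREBP processing list went the other way, with 11 of 16 higher (median 0.06). Of the desaturation and supply genes, 3 did not overlap below HFD and 1 above, beside 5.27% and 4.42% of all genes. Pgd was among the 3, at 7.13, 7.46 and 7.26 on the high-fat diet and 6.75, 6.92 and 6.92 with extract (-0.42 ± 0.11, adjusted p = 0.646).

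**Figure D4:**
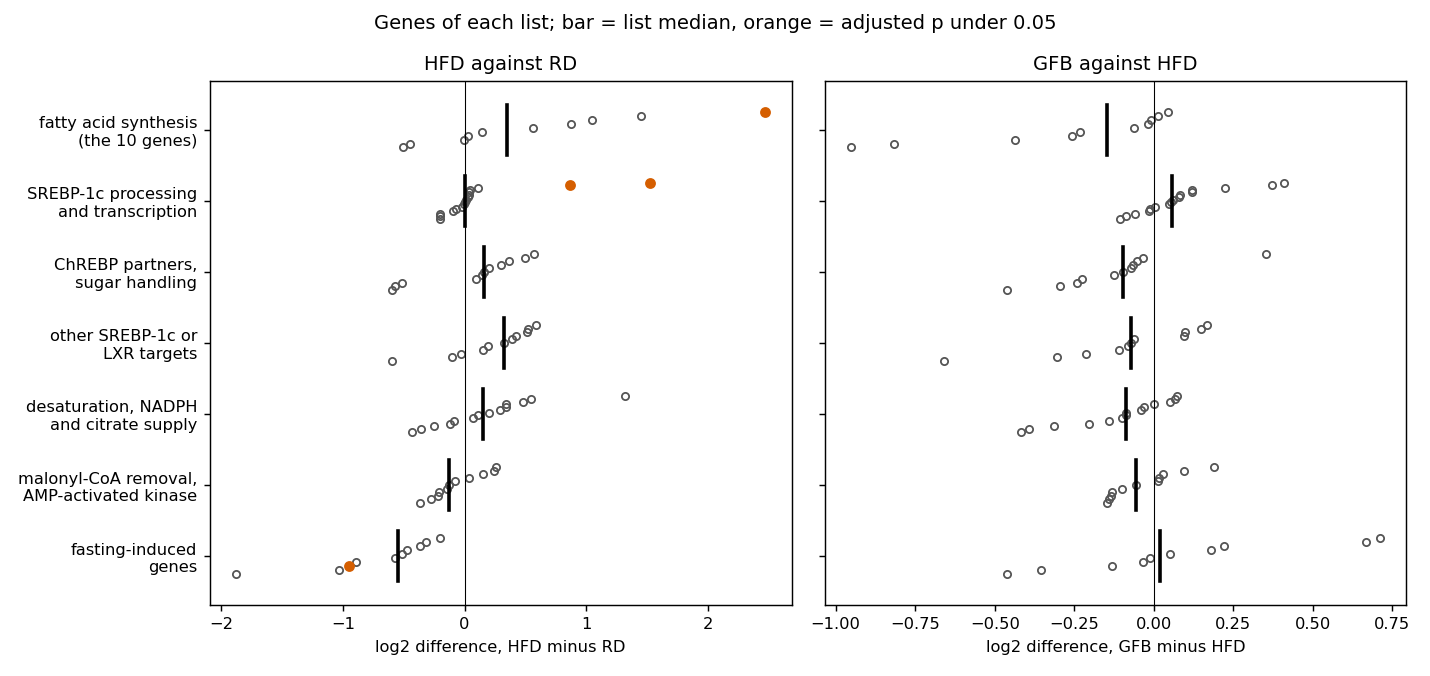
Log2 differences (horizontal axis) of the 10 fatty acid synthesis genes and of the genes of 6 lists around the pathway (rows), in HFD against RD (left) and GFB against HFD (right, on a narrower scale), with 1 circle per gene, a black bar at the list median and filled orange circles for genes with an adjusted p under 0.05. On the left the filled circles are Thrsp, Insig1, Srebf2 and Irs2, and on the right there are none.

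Adipose tissue also expresses these genes, so its markers are given beside them. The adipocyte hormone genes Adipoq and Lep lay below 4.74 in every array, as did 4 of 7 measured adipocyte markers, and Adipoq ran from 3.36 to 3.55. The mean of the 7 was 3.83 to 3.87 in RD, 4.02 to 4.28 in HFD and 3.84 to 3.99 in GFB, and Cidea, a lipid droplet gene that fatty hepatocytes also express, had the largest difference of the 7 (1.44 ± 0.55 in HFD against RD, adjusted p = 0.297). Cidea read 4.12, 3.92 and 3.49 on the regular diet, 4.82, 4.18 and 6.86 on the high-fat diet and 4.03, 3.87 and 4.31 with extract. Its HFD arrays all lay above the RD arrays, with high-fat diet replicate 3 far above the rest. At an unadjusted p under 0.05, 2 of the 7 adipocyte markers were higher in HFD than in RD and 0 lower, beside 1529 of 22180 genes higher. In that comparison Cidea and Lep did not overlap, both above, beside 7.93% of all genes above. Hepatocyte markers averaged 11.64 to 11.69 in RD, 11.62 to 11.68 in HFD and 11.72 to 11.74 in GFB. Of those 8 markers, 6 had higher means in HFD than in RD and 2 lower. At an unadjusted p under 0.05, 1 was higher and 2 lower, beside 1529 and 1417 of 22180 genes. Only Cps1, a urea cycle gene, was called, and it fell (-0.66 ± 0.10, adjusted p = 0.0224). That call ended on dropping regular-diet replicate 2 or 3 or any HFD array (-0.55 to -0.70, adjusted p from 0.0527 to 0.0852). It also ended when only the 6 arrays of these groups were fitted (adjusted p = 0.105). Macrophage markers averaged 6.46 to 7.12, 6.70 to 7.08 and 6.57 to 7.09 in the 3 groups, and stellate cell markers 6.62 to 6.79, 6.48 to 6.66 and 6.74 to 6.83. Endothelial markers averaged 7.35 to 7.50, 7.16 to 7.45 and 7.35 to 7.64. Limma called 0 of the 7 stellate and 0 of the 6 endothelial markers in GFB against HFD, but at an unadjusted p under 0.05, 4 stellate and 2 endothelial markers were higher with extract and 0 lower, beside 573 of 22180 genes higher. Of the stellate markers 4 did not overlap, all above, and of the endothelial markers 1, also above, beside 4.42% of all genes above. In HFD against RD, 2 stellate markers were lower and 0 higher at an unadjusted p under 0.05. Of the endothelial markers 2 were lower and 1 higher there, beside 1417 lower and 1529 higher of 22180 genes. Lymphocyte markers stayed between 4.18 and 4.35 and bile duct markers between 4.39 and 4.60, with the B cell and T cell genes Cd79a and Cd3e below 4.74 in every array. Their part in the differences of the 10 genes was not tested.

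Genes whose pattern over the 9 arrays was most like the mean of the 10, each scaled to unit SD, were Pbld1 (r = 0.96), Brip1os (0.94), Shpk (0.92), Gstm3 (0.92) and Slco2b1 (0.91). Shpk encodes sedoheptulokinase, Gstm3 a glutathione transferase and Slco2b1 an organic anion transporter. With group means removed the correlations were 0.95, 0.94, 0.93, 0.85 and 0.92. Pbld1 read 9.44, 9.52 and 9.43 on the regular diet, 9.48, 9.69 and 9.58 on the high-fat diet, and 9.59, 9.66 and 9.37 with extract, so it was highest in high-fat diet replicate 2 and lowest in extract replicate 3. None of the 5 was called in any comparison. They were picked from all genes for this likeness over 9 arrays, and Gstm3 has close paralogs that may share its signal.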

How the data were processed

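Liver RNA was labelled and hybridised to 9 whole-transcript arrays. The deposited values are log2 expression per probe set, made by the authors with RMA (oligo in R), as the submitters' processing notes say. Versions and the genome build are not given in the sources used here. RMA corrects background, quantile-normalizes arrays and summarises probes, so a shift shared by most genes would be lost.

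Of the 41345 probe sets, 23521 had 1 gene symbol, 1814 several and 16010 none. The first kind was used, with the brightest probe set where a gene had more than 1 (1082 genes). Symbols were checked against RefSeq (GRCm38.p6), and 23328 were equal.

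A mean per group was fitted to all 9 arrays with limma 3.58.1 in R 4.3.3 (6 residual and 3.28 prior degrees of freedom), with two-sided p-values adjusted by Benjamini-Hochberg over 22180 genes. An exact test of 3 arrays against 3 cannot go below p = 0.1. The procedure was tested on simulated data. Scan dates and batches were not used here. Precision is set by the small number of arrays.

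The members and gene lists were chosen with earlier results of these data known. Named genes were the 10, for each list the 3 lowest p in HFD against RD and every gene called, the defining markers, and the 5 genes most like the mean pattern (predicted genes and small RNAs left out). Cidea and, in GFB against HFD, Pgd were singled out after their values were seen.

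Alternatives were other moderation, brighter genes, mean of probe sets, renewed quantile normalization, median shift, array weights, replicate block, fewer arrays, an adjusted p under 0.10, and leaving out each array.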

Additional observations from a re-analysis of the deposited data

How the results depend on the processing

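Limits: with 3 arrays per group the counts of calls move widely, and the depth behind an array value is its signal, which for these 10 genes was above the median gene mean in every group. Leaving out 1 array at a time, 0 to 1 of the 10 genes were called in HFD against RD, 0 to 0 in GFB against HFD, 0 to 1 in GFB against RD and 0 to 2 with the 6 high-fat-fed arrays together, and 58 to 452, 0 to 3, 2 to 267 and 63 to 553 of all genes. Dropping regular-diet replicate 1 gave 452, 267 and 553, dropping regular-diet replicate 2 gave 58, 15 and 63 (HFD, GFB and both against RD), and dropping extract replicate 2 gave 2 in GFB against RD.

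In HFD against RD, 2 of the 10 were called with a variance trend and robust fitting, 4 among the brighter genes (Acacb, Srebf1, Thrsp and Pklr), 4 at an adjusted p under 0.10 and 0 when only those 6 arrays were fitted. In GFB against RD, 0 were called with only its 6 arrays. Of all 22180 genes, 439, 1, 143 and 551 were called with a variance trend and robust fitting in the 4 comparisons. At an adjusted p under 0.10 these counts were 611, 4, 216 and 760. The brighter genes are those above the median gene mean, so fewer were tested and the share called was larger. Of them, 597, 4, 232 and 707 were called in the 4 comparisons. With only the arrays compared, 15, 0 and 34 were called in the first 3. In GFB against HFD the count was 0 after the median shift and 3 with array weights. Other causes were not tested.

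Over all genes the samples share only a number: deviations of same-numbered arrays from their group means correlated at -0.05 to 0.17. An array matched its own number best in 8 of 18 cases, each a choice among the 3 arrays of another group. With the replicate number as a block, 2 of the 10 were called in HFD against RD (Thrsp and Mlxipl, the latter with adjusted p = 0.0405), 3 with the 6 high-fat-fed arrays together (Mlxipl with adjusted p = 0.0254), and 201, 1, 68 and 231 of all genes in the 4 comparisons.

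Reversed signs were all of differences that were not called. Acaca in HFD against RD was 0.0031 with array weights, and 0.0004 for Acly and 0.0006 for Acaca in GFB against HFD after renewed quantile normalization. Leaving out 1 array moved HFD against RD from -0.12 to 0.13 for Acaca and from -0.14 to 0.21 for Me1. It moved GFB against HFD from -0.0947 to 0.0935 for Acly, -0.15 to 0.0957 for Acaca, -0.20 to 0.34 for Fasn, -0.28 to 0.13 for Elovl6 and -0.0787 to 0.19 for Mlxipl. For Acaca it moved GFB against RD from -0.15 to 0.0668 and the 6 high-fat-fed arrays from -0.0787 to 0.0569.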
